A study of Mus musculus with 6 samples.

Results

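The nuclear genes for the subunits of oxidative phosphorylation were followed through a TNFα time course in mouse embryonic fibroblasts (MEFs). They were taken by symbol, as protein coding RefSeq entries named Nduf, Sdh, Uqcr, Cox4 to Cox8 or Atp5, which gave 85 genes of 20275 coding gene symbols. By symbol, 37 belonged to complex I, 4 to complex II, 8 to complex III, 19 to complex IV and 17 to complex V. The symbols Cox4nb, Atp5s and Atp5sl were caught by the naming rule, but their products are not counted as subunits of the complexes. A mean level above 100 deposited units over the 4 libraries was reached by 76 of the 85 genes and by 6050 coding genes in all, and log2 ratios of the other 9 are given without calls.

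The MEFs were primary cells of a C57BL/6 x 129 background, made from embryos of embryonic day 13.5 and used at passage 4. RNA was sequenced from untreated cells and from cells kept in 20 ng/ml TNFα, a pro-inflammatory cytokine that acts through NF-κB, and harvested after 1.5, 6 or 24 hr, each time as 1 library. The histone mark H3K4me3 was mapped by ChIP-seq in untreated cells, also with 1 library, beside 1 input library. Each RNA library was deposited as 2 columns of RPKM (read number scaled to transcript length and library size) that the labels do not describe as replicates, so differences between times are given without a test, and 2-fold is used as a size and not as a significance threshold.

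Oxidative phosphorylation is carried out by 5 complexes of the inner mitochondrial membrane. Complex I (NADH dehydrogenase) and complex II (succinate dehydrogenase) pass electrons to ubiquinone, complex III hands them to cytochrome c, complex IV (cytochrome c oxidase) reduces oxygen, and complex V (ATP synthase) uses the proton gradient to make ATP. Most subunits are encoded in the nucleus, a few catalytic ones in mitochondrial DNA, and both sets are assembled in fixed proportions. In several subunits, mostly of complex IV, a widely expressed gene has a paralogue used chiefly in muscle, lung, testis or low oxygen.

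The 4 RNA libraries did not lie in order of time. Over the 6050 coding genes, Pearson's r of log2 levels was 0.974 between the 1.5 and 24 hr libraries and 0.916 between the untreated and 6 hr libraries, and it lay between 0.808 and 0.870 for the other pairs. The 76 genes of oxidative phosphorylation had the same order, with r of 0.986, 0.942 and 0.812 to 0.890. The labels give no batch, so that an effect of the time after TNFα and a difference between these pairs of libraries cannot be told apart. The deposited values also differed in scale, as the median coding gene was 0.44 higher on the log2 scale at 1.5 hr, 0.73 lower at 6 hr (log2 ratio -0.73) and 0.10 higher at 24 hr than in untreated cells, and ratios are given after subtraction of that median (centred). The fibroblast markers Col1a1, Col1a2, Col3a1, Vim, Thy1, Pdgfrb, Fn1 and Twist1 were all above 100 units in untreated cells, and their summed level lay between 43179 units at 6 hr and 90650 in untreated cells. Summed endothelial markers stayed at 5.04 units or less and epithelial markers at 49.1 or less. Summed leukocyte markers ranged from 244 to 992 units, mostly from Cd68, with Cd3e at 0, and summed muscle markers from 31.6 to 73.5 units. What part these cells had in any result was not tested. In such bulk RNA, fewer cells of a kind and less RNA per cell cannot be told apart.

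In untreated MEFs, transcripts of the respiratory complexes were among the abundant ones, but the subunits of a complex were far from equal. The median gene of the set above the level filter stood at the 96.3rd percentile of all coding genes, and 62 of the 76 were above the 90th. Of all 6050 coding genes above the filter, the median stood at the 85.1st percentile and 2028 were above the 90th. Atp5d, the delta subunit of the ATP synthase stalk, was the highest at 11520 units, followed by Ndufa3 at 9856 and Ndufv3 at 9671, both accessory subunits of complex I. The lowest were Uqcrfs1, the Rieske iron-sulfur protein that complex III cannot work without, at 41.1 units, and Ndufs1, the large iron-sulfur subunit of complex I, at 56.7. Within complex I the highest gene was 174-fold above the lowest, within complex III 216-fold and within complex V 58.1-fold. Complex II, which has just 4 subunits, spanned 2.78-fold, from Sdhd at 188 units to Sdhb at 524. Its summed level was 1382 units, against 73079 for complex I, 22258 for complex III, 39433 for complex IV and 51846 for complex V.

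**Figure D1:**
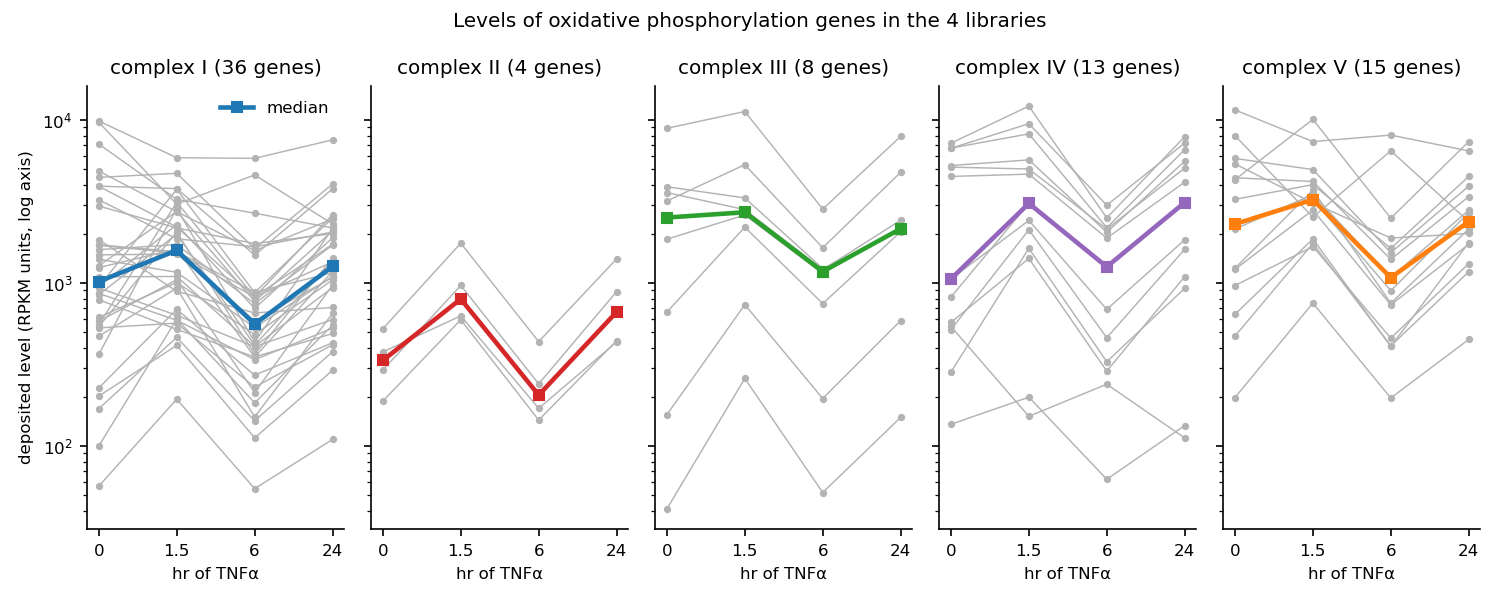
Deposited level (RPKM units, log axis) of the 76 genes above the level filter in the untreated library and the 1.5, 6 and 24 hr libraries, with 1 panel per complex, a grey line per gene and the median as squares. Complex I spans 174-fold in untreated cells and 30.3-fold at 1.5 hr. Of the 76 deposited values of the 6 hr library, 67 (88.2%) lie below those of untreated cells, against 87.5% of all coding genes above the filter.

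Over the whole set, the spread between genes was smaller in the libraries after TNFα, but not in every complex. The SD of log2 levels over the 76 genes was 1.90 in untreated cells and 1.39, 1.57 and 1.46 after 1.5, 6 and 24 hr, while over all 6050 coding genes it went from 1.70 to 1.59, 1.58 and 1.59. In complex I the ratio of highest to lowest gene was 30.3, 106 and 68.8 at 1.5, 6 and 24 hr. Its lowest gene, Ndufs1, passed the level filter only through its 1.5 and 24 hr levels, and so did Uqcrfs1 in complex III, so these spans and their change rest in part on genes admitted by their later levels. In complex V the ratio was 13.4, 41.0 and 16.4. Complex II went the other way, from 2.78-fold to 2.95, 3.03 and 3.23, and complex IV went from 53.0-fold to 79.9, 48.0 and 70.5. The lowest gene taken for complex IV in untreated cells and at 6 hr was Cox4nb, which is not counted as a subunit. The SD of log2 levels in complex IV was 2.01 in untreated cells and 1.95, 1.71 and 2.05 at 1.5, 6 and 24 hr.

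H3K4me3, a mark of active and poised promoters, lay at the start of most of these genes. A peak was found within 1 kb of an annotated start for 77 of 85 genes. Of the 76 genes above the level filter 75 had one, against 92.4% of all coding genes above the filter that could be matched to a start. Of the other 9 genes 2 had one, Atp5s and Atp5sl, against 37.7% of coding genes below the filter. The peaks of the 77 genes held a median of 1203 tags, from 431 at Cox7b on the X chromosome to 2913 at Ndufb10, and the median coding gene above the filter with a peak had 1342. Fold enrichment ranged from 23.4 at Ndufa6 to 164 at Ndufs4, whose peak covers chr13:115176697-115179150 (mm9). Tag number and untreated level were nearly unrelated across the 75 genes (Spearman's rho -0.11, across genes that share 1 library and are not replicates), and rho over 5532 coding genes was 0.14. Cox4i1, the main form of subunit 4, and Cox4nb, a neighbour that codes for a protein of the endoplasmic reticulum, shared a peak of 2153 tags at chr8:123189321-123194508.

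The 8 genes without a peak were Cox4i2, Cox6a2, Cox6b2, Cox7a1, Cox7b2, Cox8b, Cox8c and Ndufa4l2. Each is a paralogue of a widely expressed gene of the same set that did have a peak. Cox6a2, Cox7a1 and Cox8b are the heart and skeletal muscle forms, Cox6b2, Cox7b2 and Cox8c are testis forms, Cox4i2 is best known from lung, and Ndufa4l2 is induced by low oxygen. Their untreated levels ran from 0 for Cox7b2 and Cox8c to 541 units for Cox6b2, which was the only gene above the level filter that lacked a peak. The 8 widely expressed partners (Cox4i1, Cox6a1, Cox6b1, Cox7a2, Cox7a2l, Cox7b, Cox8a and Ndufa4) lay between 517 and 7200 units.

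**Figure D2:**
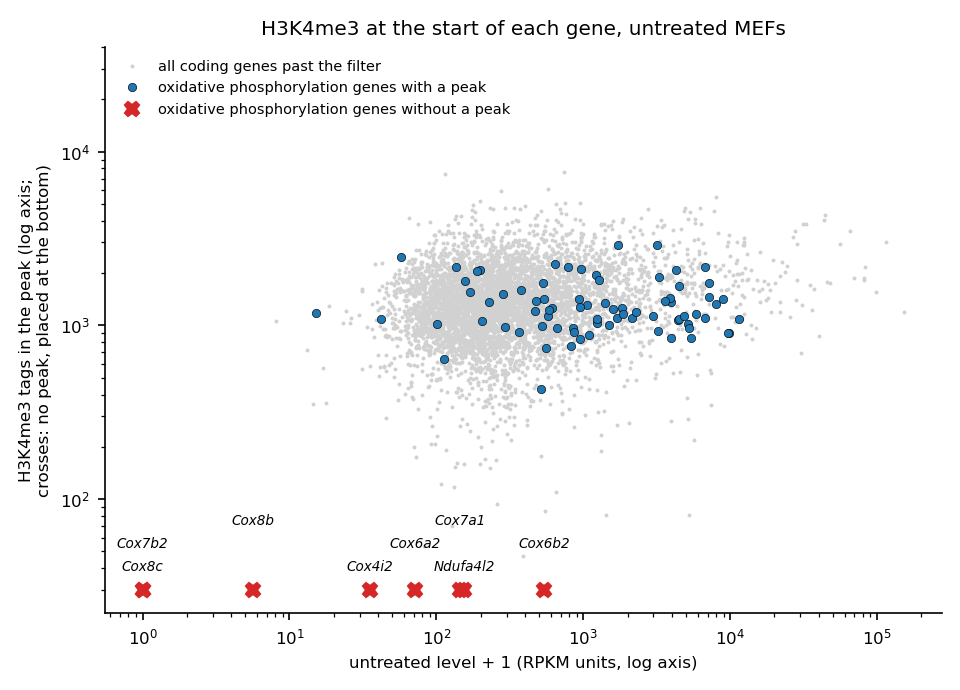
H3K4me3 tags in the peak at the start of each gene (log axis) against the untreated level plus 1 (RPKM units, log axis), for coding genes above the level filter (grey) and oxidative phosphorylation genes with a peak (blue). The 8 genes without a peak are crosses at the bottom, where the vertical position carries no value, and Cox6b2 at 541 units is the highest of them.

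Promoter windows of 300 bases, from 250 before to 50 after the start, were at hand for 69 of the 85 genes (RefSeq, GRCm38.p6), and all 75 windows were found once in mm9. Of these windows 71 overlapped an H3K4me3 peak and the 4 that did not belonged to Cox6b2, Cox7a1, Cox7b2 and Cox8b. They were searched on both strands for short core motifs of factors known from nuclear genes for mitochondrial proteins. GCATGCG, the core of the NRF1 site, stood in 15.9% of the 69 genes, in 5.30% of 16094 coding genes with a window and in 8.02% of the 4899 above the level filter. AAGGTCA, the core bound by estrogen-related receptors (ERR), stood in 11.6%, 4.59% and 3.55%. AAGATGG, a YY1 core, stood in 17.4%, 7.44% and 9.86%. CCGGAAG, the ETS core that also binds GABP (also called NRF2), stood in 23.2% of the genes and in 13.6% of coding genes, but in 22.9% of those above the filter. GGGCGG, the SP1 core, stood in 40.6%, 52.2% and 72.8%, and TATAAA in 10.1%, 14.4% and 8.65%. These shares are descriptions of the letters present, not of binding, and genes can have more than 1 window.

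The windows below show these cores beside peak and paralogue, with matches to the NRF1, ETS, YY1 and ERR cores in capitals. Sdhb (chr4:140516936-140517235, plus strand, mm9), the iron-sulfur subunit of complex II, and Uqcr11 (chr10:79869517-79869816, minus strand), a small subunit of complex III, held an NRF1 core and an ETS core each, and in Uqcr11 the NRF1 core was matched on both strands at overlapping bases. Cox6b1 (chr7:31411084-31411383, minus strand) held an ETS core on its reverse strand, and its testis paralogue Cox6b2 (chr7:4704647-4704946, minus strand) held none of the 4.
Sdhb: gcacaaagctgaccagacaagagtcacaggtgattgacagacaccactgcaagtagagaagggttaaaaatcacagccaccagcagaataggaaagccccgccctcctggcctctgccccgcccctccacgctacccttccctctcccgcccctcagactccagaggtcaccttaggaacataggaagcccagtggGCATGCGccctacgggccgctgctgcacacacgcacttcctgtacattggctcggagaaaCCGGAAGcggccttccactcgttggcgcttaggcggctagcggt
Uqcr11: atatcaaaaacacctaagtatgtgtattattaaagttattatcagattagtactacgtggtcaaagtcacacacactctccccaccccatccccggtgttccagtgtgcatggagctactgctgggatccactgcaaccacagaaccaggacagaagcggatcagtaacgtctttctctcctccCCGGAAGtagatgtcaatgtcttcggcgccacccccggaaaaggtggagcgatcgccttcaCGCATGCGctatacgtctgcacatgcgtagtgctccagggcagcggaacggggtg
Cox6b1: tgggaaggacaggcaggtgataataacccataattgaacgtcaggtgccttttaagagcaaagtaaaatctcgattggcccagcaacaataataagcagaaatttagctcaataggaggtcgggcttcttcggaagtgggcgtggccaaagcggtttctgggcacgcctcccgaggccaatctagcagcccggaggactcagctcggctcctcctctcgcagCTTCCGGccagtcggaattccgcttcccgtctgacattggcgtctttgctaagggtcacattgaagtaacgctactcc
Cox6b2: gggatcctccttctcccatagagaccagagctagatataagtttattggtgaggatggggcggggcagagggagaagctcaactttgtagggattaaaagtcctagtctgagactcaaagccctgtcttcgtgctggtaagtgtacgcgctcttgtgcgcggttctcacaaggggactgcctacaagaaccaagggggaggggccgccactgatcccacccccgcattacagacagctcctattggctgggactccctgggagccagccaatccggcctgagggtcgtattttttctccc

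The windows of Cox7a2 (chr9:79607611-79607910, minus strand), which had a peak, and of its muscle paralogue Cox7a1 (chr7:30968940-30969239, plus strand), which did not, held none of the 4 cores, and GC content was 56.7% and 53.0%. Presence of a peak and presence of these 4 cores thus did not go together in this pair. The SP1 core, left unmarked here, was found for Cox7a2 and not for Cox7a1. In the Cox6b pair it was found for Cox6b2, without a peak, and not for Cox6b1, with a peak.
Cox7a2: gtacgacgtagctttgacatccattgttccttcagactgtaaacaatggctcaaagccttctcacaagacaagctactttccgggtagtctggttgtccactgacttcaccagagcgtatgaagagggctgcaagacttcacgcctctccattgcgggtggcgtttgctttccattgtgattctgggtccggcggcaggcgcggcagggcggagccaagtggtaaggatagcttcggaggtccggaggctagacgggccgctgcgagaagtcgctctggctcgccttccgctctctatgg
Cox7a1: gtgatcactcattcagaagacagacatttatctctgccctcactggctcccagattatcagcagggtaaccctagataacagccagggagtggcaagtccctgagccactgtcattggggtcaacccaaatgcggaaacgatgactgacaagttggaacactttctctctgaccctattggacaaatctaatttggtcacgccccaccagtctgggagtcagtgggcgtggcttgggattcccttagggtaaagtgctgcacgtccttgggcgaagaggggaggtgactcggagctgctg

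After TNFα the set as a whole stayed near the average of coding genes, with members on both sides of it. The median centred log2 ratio of the 76 genes was 0.08, -0.26 and 0.12 at 1.5, 6 and 24 hr. At 1.5 hr, 21 of the 76 were higher than in untreated cells by 2-fold or more, against a background of 15.7% of coding genes, and 12 were lower by as much, against 17.3%. At 6 hr, 5 were higher (background 7.12%) and 3 lower (3.22%). At 24 hr, 18 were higher (14.2%) and 8 lower (15.2%). As shares of the 76, these are 27.6% and 15.8% at 1.5 hr, 6.58% and 3.95% at 6 hr and 23.7% and 10.5% at 24 hr, so the share of higher genes was above the background at 1.5 and 24 hr and the other shares were near or below it. All 18 genes that were higher at 24 hr were also higher at 1.5 hr, and all 8 that were lower at 24 hr were also lower at 1.5 hr, but both comparisons share the untreated library. Few coding genes differed by 2-fold between these 2 libraries (0.678% higher and 1.09% lower at 24 hr). Overlaps between times were not counted over all coding genes, so they are not shown to be particular to this set. At all 3 times 5 genes were higher, Cox7c, Ndufb4, Ndufc2, Uqcrc2 and Uqcrfs1, and 1 was lower, Ndufa13, which kept the call only at 6 hr within GC bins. Before centring, the 5 were between 0.33 and 0.87 at 6 hr, so none of them was then 2-fold higher. Among the genes called higher at 1.5 hr, Uqcrfs1, Ndufs1 and Ndufc2 were below 100 units in untreated cells, at 41.1, 56.7 and 99.998. They passed the level filter only through their levels after TNFα, so their calls as higher rest in part on the filter. In both deposited columns alike, 18 of the 21 and 11 of the 12 genes passed 2-fold at 1.5 hr.

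**Figure D3:**
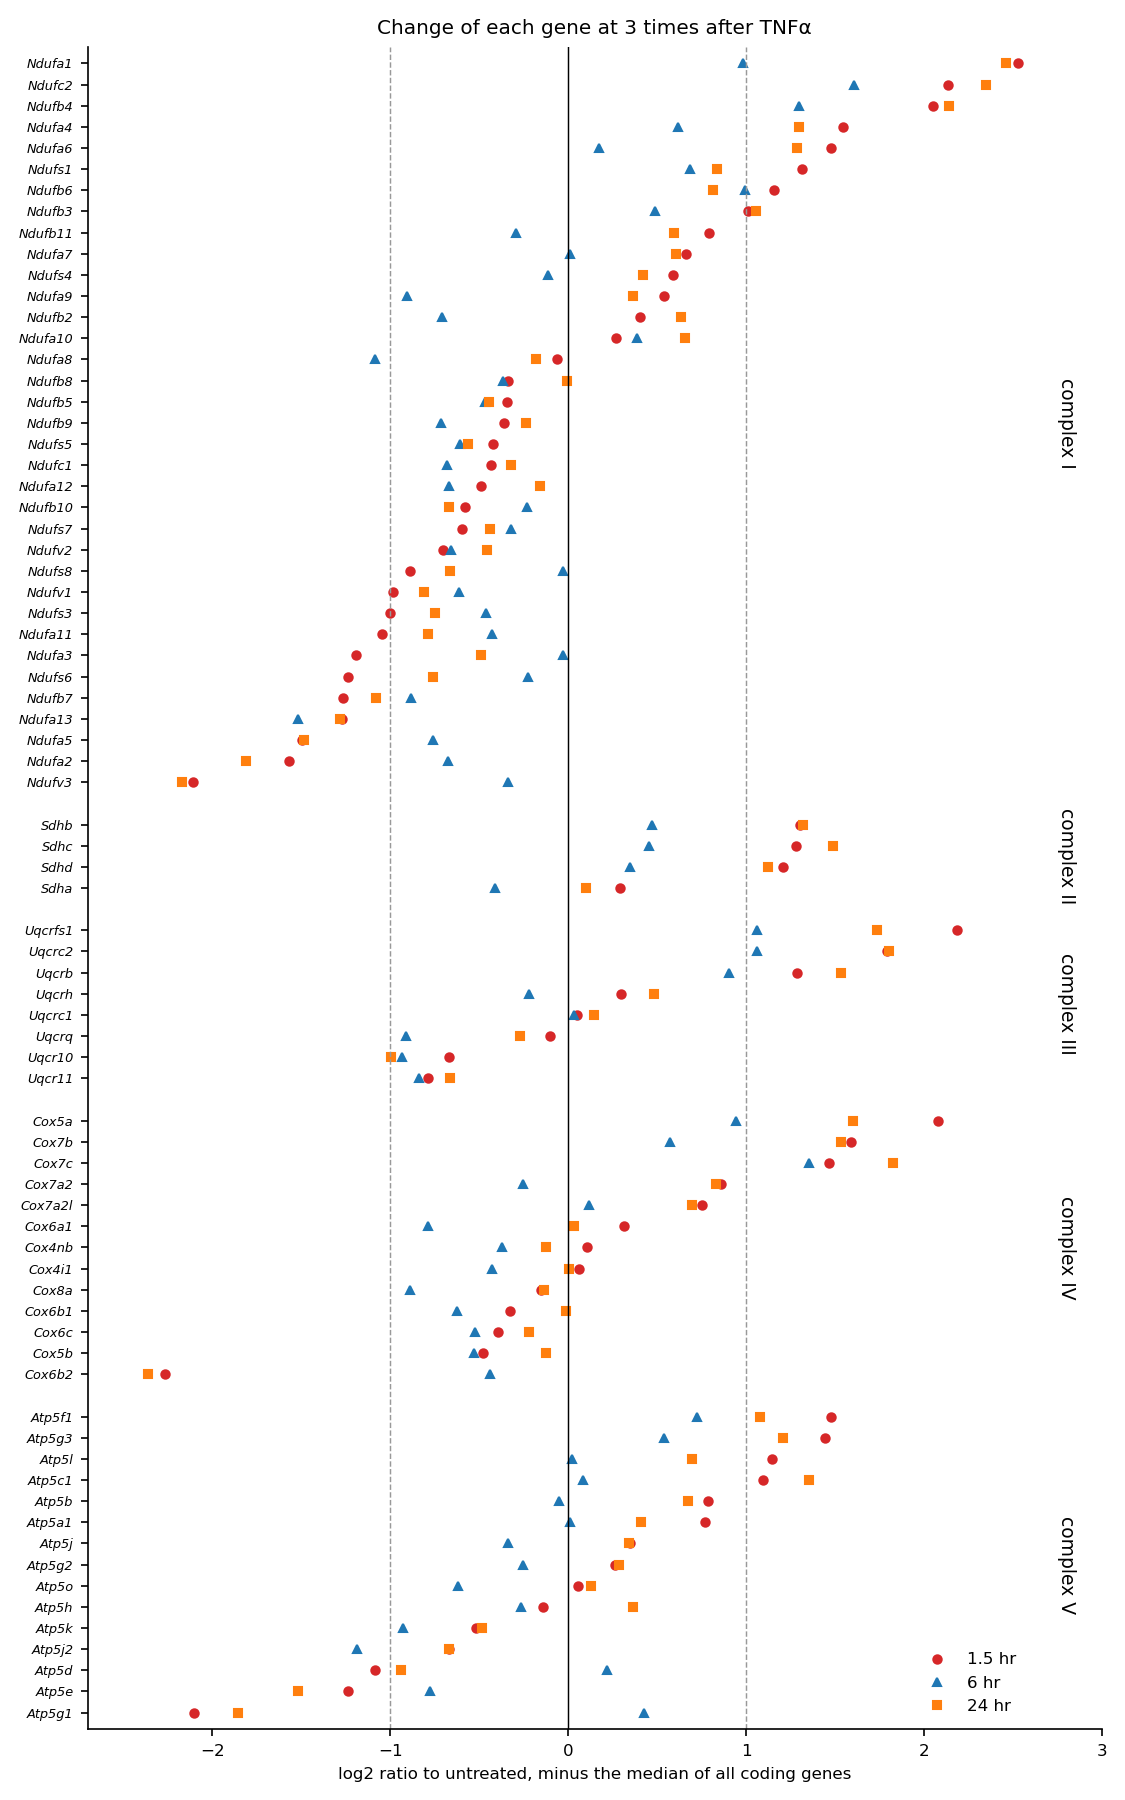
Centred log2 ratio to untreated cells of 75 of the 76 genes at 1.5 hr (red circles), 6 hr (blue triangles) and 24 hr (orange squares), grouped by complex and ordered by the 1.5 hr value. Dashed lines mark 2-fold, and each complex except complex II runs from below to above the centre at 1.5 hr, from -2.27 at Cox6b2 to 2.53 at Ndufa1.

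The members of complex I lay on both sides of the centre, with an SD of 1.17 at 1.5 hr against 1.02 for all coding genes. At 1.5 hr, 8 of its 36 genes were 2-fold or more above the centre and 8 as far below it, against backgrounds of 15.7% and 17.3%. Within GC bins 5 were above and 6 below by as much, against 10.4% and 10.5%. The median of complex I was -0.35, which became 0.09 both without centring and within bins of untreated level. Ndufa1, a small membrane subunit encoded on the X chromosome, stood at 365 units in untreated cells and at 2869, 434 and 2163 after 1.5, 6 and 24 hr. Ndufc2 stood at 99.998, 601, 184 and 551 units, and Ndufb4 at 554, 3126, 820 and 2627. All 3 were lowest in untreated cells, and their centred ratios were 2.53, 2.13 and 2.05 at 1.5 hr and 2.46, 2.35 and 2.14 at 24 hr. Ndufc2 and Ndufb4 were also at least 2-fold higher at 6 hr, at 1.61 and 1.30. Ndufa4, Ndufa6, Ndufs1, Ndufb6 and Ndufb3 followed between 1.01 and 1.54 at 1.5 hr. The value for Ndufs1, 1.31, became -0.11 against genes of similar untreated level. Ndufa4 was first named for complex I and is now placed in complex IV.

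In the other direction, Ndufv3, an accessory subunit at the NADH-binding tip, stood at 9671 units in untreated cells and at 3045, 4598 and 2302 after 1.5, 6 and 24 hr. Ndufa2 stood at 7110, 3258, 2679 and 2174 units, and Ndufa5 at 1845, 889, 655 and 708. In these 3 genes the untreated library was the highest of the 4, and the centred ratio was -2.11, -1.57 and -1.49 at 1.5 hr and -2.17, -1.81 and -1.48 at 24 hr. Ndufa13, also known as GRIM-19, was 2-fold or more below the centre at all 3 times, at -1.27, -1.52 and -1.28, but within GC bins it was at -0.09, -1.34 and -0.23 and kept only the call at 6 hr. At 1.5 hr the accessory subunits Ndufb7, Ndufs6, Ndufa3 and Ndufa11 followed at -1.27, -1.24, -1.19 and -1.04, and at 24 hr Ndufb7 was at -1.08 and the other 3 between -0.79 and -0.49. Ndufa8 was lower at 6 hr alone, at -1.09, with -0.06 and -0.18 at the other times. Of core subunits that carry the flavin or iron-sulfur clusters, Ndufv1, Ndufs8, Ndufv2 and Ndufs7 were at -0.99, -0.89, -0.71 and -0.60 at 1.5 hr and at -0.81, -0.66, -0.46 and -0.44 at 24 hr, while Ndufs1 was at 1.31 and 0.84. Within GC bins Ndufs7 turned to 0.28 and 0.31 at these times. Ndufv1 was then at -0.53 and -0.44, Ndufs8 at -0.19 and -0.08 and Ndufs1 at 0.55 and 0.17. Ndufv2 was further from the centre within GC bins, at -1.64, -1.32 and -1.32 at 1.5, 6 and 24 hr.

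Complex II, the link to the tricarboxylic acid cycle, had no gene below the centre at 1.5 or 24 hr, although Sdha was at -0.15 and -0.23 within GC bins. Sdhb stood at 524, 1754, 437 and 1406 units in the order of time, Sdhc, a membrane anchor, at 292, 966, 240 and 885, and Sdhd, the other anchor, at 188, 594, 144 and 443. Their centred ratios were 1.30, 1.28 and 1.21 at 1.5 hr and 1.32, 1.49 and 1.12 at 24 hr. Sdha, the flavoprotein with the active site, stood at 377, 628, 170 and 435 units, with centred ratios of 0.29 and 0.10. At 6 hr the 4 genes lay between -0.41 and 0.47, and their median of 0.40 was -0.33 before centring.

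In complex III, 3 of 8 genes were at least 2-fold higher at 1.5 and 24 hr and none was lower by that much. Backgrounds at these times were 15.7% and 14.2% for higher and 17.3% and 15.2% for lower genes. Within GC bins only Uqcrfs1 was higher, at 1.60 and 1.21, against 10.4% and 10.3%. Uqcrfs1 stood at 41.1 units in untreated cells and at 260, 51.8 and 150 after 1.5, 6 and 24 hr. Uqcrc2, a core protein, stood at 156, 736, 195 and 587 units. Their centred ratios were 2.19 and 1.79 at 1.5 hr, 1.06 and 1.06 at 6 hr and 1.74 and 1.81 at 24 hr. Uqcrc1, the other core protein, was at 0.05, 0.04 and 0.15, but within GC bins Uqcrc1 was at 0.59 and 0.66 and Uqcrc2 at 0.90 and 0.99 at 1.5 and 24 hr, where Uqcrc2 was no longer 2-fold higher. The small subunits Uqcr10 and Uqcr11 were at -0.67 and -0.79 at 1.5 hr and at -0.99 and -0.67 at 24 hr. Uqcrb was at 1.29 and 1.53.

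In complex IV, Cox5a stood at 284 units in untreated cells and at 1630, 329 and 927 after 1.5, 6 and 24 hr, Cox7b at 517, 2119, 461 and 1609, and Cox7c at 819, 3076, 1257 and 3116. These 3 of 13 genes were at least 2-fold higher at 1.5 and 24 hr, against backgrounds of 15.7% and 14.2%. Cox7c was also higher at 6 hr, at 1.35. Within GC bins 2 genes of the complex were at least 2-fold higher at 1.5 hr, Cox5a and Cox6a1, against 10.4%. At 24 hr 2 were, Cox5a and Cox7c, against 10.3%. Cox7b and Cox7c were at 0.66 and 0.89 within GC bins at 1.5 hr. Cox5b, which binds zinc, was at -0.48 and -0.12 at 1.5 and 24 hr. Cox6b2 was the only gene of the complex above the filter that was at least 2-fold lower. The 5 most abundant members, Cox6a1, Cox8a, Cox4i1, Cox6b1 and Cox5b, lay between -0.48 and 0.31 at 1.5 hr and between -0.13 and 0.03 at 24 hr.

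In complex V, the catalytic beta subunit Atp5b stood at 4299, 10078, 2495 and 7362 units and Atp5a1, the alpha subunit, at 1212, 2804, 734 and 1728. Their centred ratios were 0.79 and 0.77 at 1.5 hr and 0.67 and 0.41 at 24 hr. Of the rest of the F1 head and stalk, the gamma subunit Atp5c1 stood at 641, 1863, 408 and 1766 units and was 2-fold or more above the centre at 1.5 and 24 hr, while the delta subunit Atp5d was at -1.09 and -0.94 and the epsilon subunit Atp5e at -1.23 and -1.52. Atp5f1, of the peripheral stalk, was at 1.48 and 1.08, and Atp5l, a small membrane subunit, at 1.15 and 0.70. Atp5j2 was at least 2-fold lower at 6 hr alone, at -1.18, which was -1.92 before centring.

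Genes for the c subunit were high in opposite pairs of libraries. This subunit forms the rotor ring and is made from the genes Atp5g1, Atp5g2 and Atp5g3, whose mature protein is the same. Atp5g1 stood at 8018 units in untreated cells and at 2532, 6465 and 2378 after 1.5, 6 and 24 hr. Atp5g2 stood at 2139, 3490, 1078 and 2795 units, and Atp5g3 at 472, 1748, 411 and 1172. Atp5g1 was high in the untreated and 6 hr libraries and low in those of 1.5 and 24 hr, and for Atp5g3 these pairs were reversed. Within each pair both genes were lower in the later library. Of the summed level of the 3 genes, Atp5g1 made up 75.4% in untreated cells, 32.6% at 1.5 hr, 81.3% at 6 hr and 37.5% at 24 hr, and Atp5g3 4.44%, 22.5%, 5.17% and 18.5%. These shares are taken within a library and do not depend on its scaling. The sum itself was 10629, 7771, 7954 and 6345 units. How reads that fit more than 1 of these genes or their processed pseudogenes were counted is not given in the sources used here, so the split between them is uncertain.

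Among the complex IV and Ndufa4 paralogues, the tissue-restricted genes that were above 0 in untreated cells had a smaller share at 1.5 and 24 hr than in untreated cells. Cox6b2 stood at 541 units in untreated cells and at 152, 239 and 112 after 1.5, 6 and 24 hr, and Cox6b1 at 5252, 5689, 2048 and 5584. The share of Cox6b2 in the pair was 9.34%, 2.60%, 10.5% and 1.97%. Ndufa4l2 stood at 153, 75.5, 31.1 and 41.8 units and made up 13.9%, 1.97%, 3.45% and 1.64% of the pair with Ndufa4. Cox7a1 stood at 143, 87.9, 65.4 and 52.6 units and made up 8.05%, 2.24%, 6.28% and 1.76% of the Cox7a genes. Ndufa4l2 had its highest share in untreated cells, whereas Cox6b2 and Cox7a1 had high shares in the untreated and 6 hr libraries.

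Cox4i2 stood at 34.5, 5.37, 1.44 and 5.86 units and Cox6a2 at 70.4, 33.4, 26.8 and 28.8. Cox8b was at 4.68 and 1.26 units in untreated cells and at 1.5 hr and was listed at 0 at 6 and 24 hr, and Cox7b2 and Cox8c were listed at 0 in all 4 libraries. All 6 of the genes without a peak that were above 0 in untreated cells were below the centre at 1.5, 6 and 24 hr, with medians of -1.63, -1.08 and -2.16 that for Cox8b rest on the pseudocount, and all 6 were also below it when genes were compared with others of similar GC content. Of the 8 widely expressed partners, 2, 5 and 2 were below the centre, and 1, 7 and 1 within GC bins, so that at 6 hr most genes of both kinds were below it. Of the 6 genes, 5 lay under the level filter, where values are low, while the centre comes from coding genes above it. The share below the centre among other coding genes of such low levels, or without a peak, was not determined. These values therefore describe the 6 genes and are not shown to be particular to them.

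**Figure D4:**
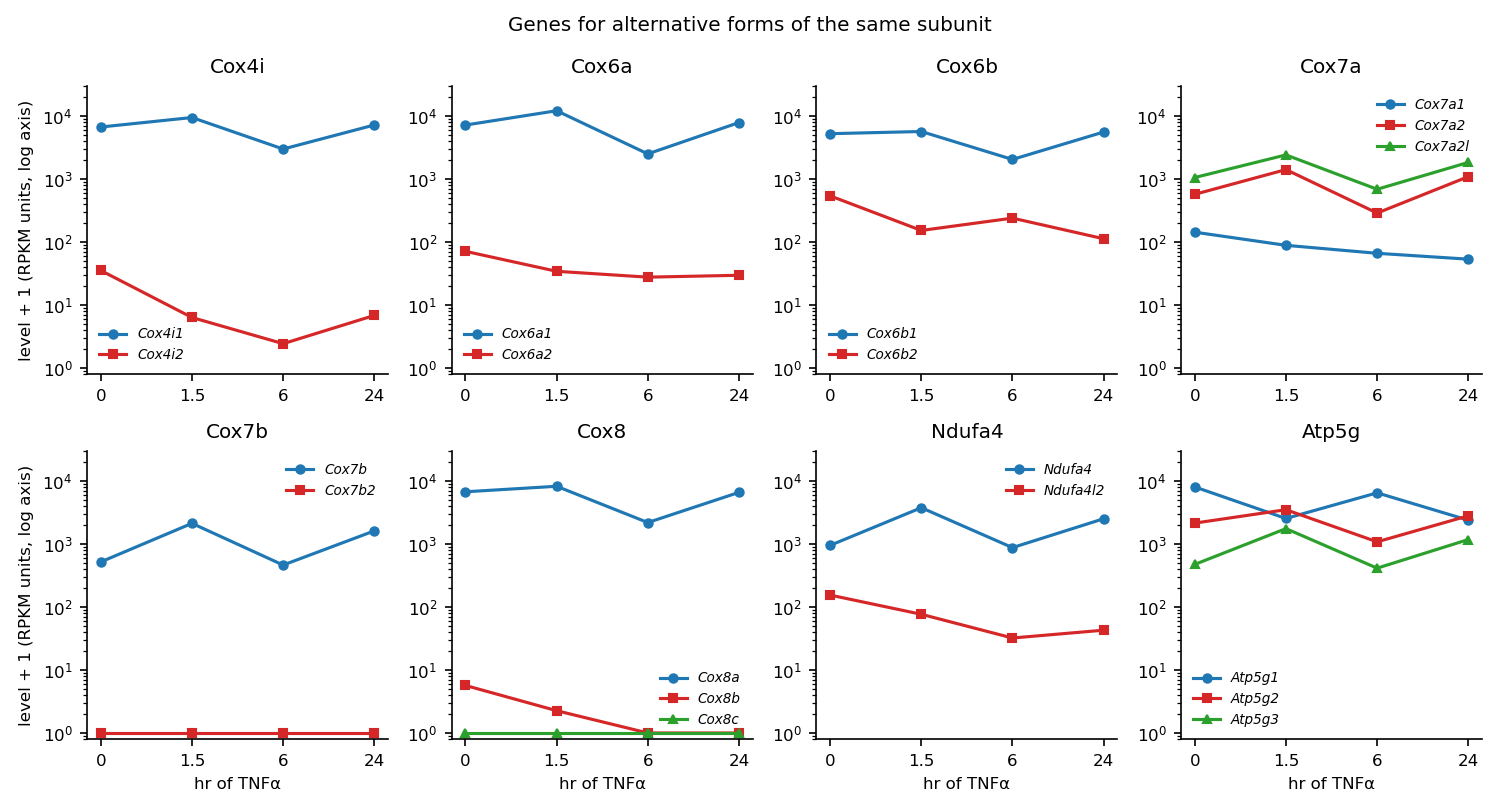
Level plus 1 (RPKM units, log axis) of the genes for alternative forms of a subunit in the untreated, 1.5, 6 and 24 hr libraries, with 1 panel per set and points at 1 for genes listed at 0. Atp5g1 and Atp5g2 change places between libraries, with Atp5g1 at 75.4% of its set in untreated cells and 32.6% at 1.5 hr, while the tissue-restricted Cox genes stay below their partners throughout.

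The GC content of a transcript went with its ratio, among these genes as among all coding genes. Spearman's rho between GC content and centred ratio over the 76 genes was -0.55, -0.42 and -0.55 at 1.5, 6 and 24 hr, and over 5988 coding genes it was -0.57, -0.36 and -0.56. Between the 24 and 1.5 hr libraries rho was 0.13 and 0.16. The genes that were at least 2-fold higher at 1.5 hr had a median GC content of 48.5%, those at least 2-fold lower 55.2%, and the 76 genes 51.9%. These genes share their libraries and are not independent, and the part of GC content in the ratios was not tested beyond comparing each gene with the median of its GC bin. Transcript length, with a median of 868 bases against 2452.5 for coding genes, had a rho of 0.10, 0.15 and 0.10 with the ratio, against -0.11, 0.06 and -0.16 over coding genes.

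Within GC bins, 10 of the 76 genes (13.2%) were at least 2-fold higher at 1.5 hr, against a background of 10.4%. Another 8 (10.5%) were lower, against a background of 10.5%. At 6 hr 3 (3.95%) were higher, against 4.76%, and 6 (7.89%) lower, against 2.54%. At 24 hr 10 (13.2%) were higher, against 10.3%, and 8 (10.5%) lower, against 8.73%. Of the 21 genes called higher at 1.5 hr, 8 kept that call, Atp5g3, Cox5a, Ndufa1, Ndufa6, Ndufb4, Ndufc2, Sdhb and Uqcrfs1. Of the 12 called lower 6 kept it, Atp5g1, Cox6b2, Ndufa2, Ndufa3, Ndufa5 and Ndufv3. Sdhc and Sdhd went from 1.28 and 1.21 to 0.70 and 0.63, while Sdhb went from 1.30 to 1.64. Atp5d, the most GC-rich of the 76 at 61.1%, went from -1.09 to 0.10. The values for Atp5g1 rest on a long annotated transcript of 4715 bases with 46.8% GC, so its bin may not be that of its usual mRNA.

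**Figure D5:**
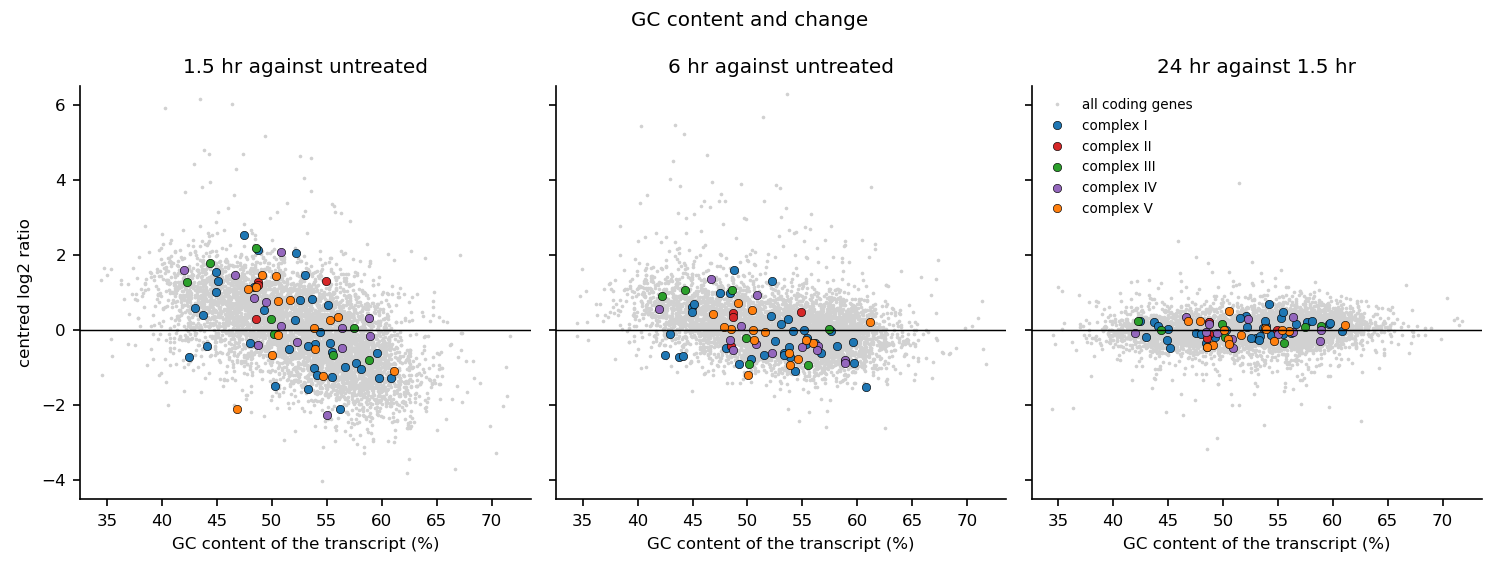
Centred log2 ratio against the GC content of the transcript in percent, for coding genes above the level filter (grey) and the 76 oxidative phosphorylation genes coloured by complex, at 1.5 hr and 6 hr against untreated cells and at 24 hr against 1.5 hr. Ratios are lower at higher GC content in the first and second panels (rho -0.55 and -0.42 over the 76 genes) and most lie near 0 in the third.

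Between 1.5 and 24 hr of TNFα, the genes hardly differed, a comparison chosen after the closeness of these libraries had been seen. Set against the 1.5 hr library, none of the 76 genes was at least 2-fold higher (background 0.678%) or lower (1.09%) at 24 hr, and the SD of their centred ratios was 0.25, against 1.12, 0.67 and 1.06 at 1.5, 6 and 24 hr relative to untreated cells. The extremes were Ndufa3 at 0.69 and Ndufs1 at -0.48. The 2 columns of a library differed in the median gene of the set by 0.13 to 0.18 on the log2 scale.

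Genes of related lists gave a frame for these values. Of 14 genes of the tricarboxylic acid cycle and pyruvate dehydrogenase above the filter, 6 were at least 2-fold higher at 1.5 hr and none was lower, with a median of 0.87. Suclg1, a subunit of succinyl-CoA ligase, was highest at 1.95 and Idh3g lowest at -0.20. Of 24 genes of mitochondrial import and carriers, 12 were higher and 1 was lower, Timm13, at -1.29, with a median of 1.07, and Timm8b, like Timm13 a small chaperone of the intermembrane space, was highest at 1.75. Within GC bins these medians were 0.41 and 0.63, and 4 genes of each list were higher, which is to be read against the backgrounds of 15.7% and, within GC bins, 10.4%. Cytochrome c, encoded by Cycs, stood at 68.0 units in untreated cells and at 490, 140 and 411 after 1.5, 6 and 24 hr. Its centred ratios were 2.39, 1.77 and 2.48 (1.45, 1.11 and 1.61 within GC bins). Like Cycs, the genes Idh3a, Dld, Fh1, Tomm70a and Timm10, all higher at 1.5 hr, were below 100 units in untreated cells. Cycs and these genes passed the level filter only through their levels after TNFα, so their calls rest in part on the filter. Cyc1, the cytochrome c1 of complex III, was at 0.58, -0.11 and 0.67 (1.28, 0.02 and 1.25 within GC bins). Atpif1, the inhibitor of the ATP synthase, was at -0.70, -0.83 and -0.75.

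Of 15 assembly factors above the filter, 1 was at least 2-fold higher at 1.5 hr, Tmem70, which helps to assemble the ATP synthase, at 1.69, and none was lower, the lowest being Ndufaf3 at -0.56. Within GC bins Tmem70 and Ndufaf3 were at 0.79 and 0.22, and 3 others were higher and 1 was lower. Tmem70 stood at 81.2 units in untreated cells and passed the level filter only through its levels after TNFα. The medians of the 65 mitochondrial ribosomal, 85 cytosolic ribosomal and 36 proteasome genes at 1.5 hr were 0.32, 0.09 and 0.55, with 14, 10 and 12 genes at least 2-fold higher and 6, 8 and 0 lower. Over all coding genes 15.7% were higher and 17.3% lower. Within GC bins 9, 9 and 4 genes of these lists were higher and 5, 6 and 0 lower, against 10.4% and 10.5%. The SD of the oxidative phosphorylation genes, 1.12, was close to the 1.02 of all coding genes, with 0.82, 0.81 and 0.71 in these 3 lists. Of 4 genes of mitochondrial DNA expression above the filter, Ssbp1, the single-strand binding protein, was highest at 2.11 and Polrmt, the RNA polymerase, lowest at -0.91, and within GC bins they were at 1.18 and 0.27. Ssbp1 stood at 32.7 units in untreated cells and also passed the filter only through its levels after TNFα.

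Of 12 known regulators of these genes, 4 were above the level filter. Ppargc1a (PGC-1α) was at 0.220 units in untreated cells and at 0.771 units or less in every library, and Esrrb was listed at 0 throughout. Nrf1 stood at 63.1, 128, 29.0 and 99.1 units, Gabpa at 24.3, 81.9, 21.8 and 52.1 and Gabpb1 at 35.0, 143, 30.2 and 89.2, each below the level filter, with the 1.5 hr library the highest. Ppargc1b stood at 38.6, 29.5, 15.4 and 17.0 units, and Esrrg and Ppara at 1.33 units or less. Of those above it, Pprc1 was at -1.04 at 1.5 and 24 hr, Ppard at -0.74, Esrra at -0.39 and Yy1 at -0.02 at 1.5 hr. Within GC bins Esrra, Ppard and Yy1 turned to 0.79, 0.14 and 0.06 at 1.5 hr, and Pprc1 was at -0.61 and -0.71 at 1.5 and 24 hr.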

How the data were processed

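RNA was measured in 4 libraries and H3K4me3 in 1, from untreated or TNFα-treated MEFs. The authors mapped RNA reads to mm9 with TopHat and computed RPKM per RefSeq transcript with their own script, and this deposited RPKM table holds 27794 entries, 25684 of them protein coding. Its column sums differ between libraries (5027610 to 10612750 units), so it is on a scale of its own. Read depth is unknown from it, and the range of mapped reads that the paper states was not used, so that no counting interval is given. Its columns carry library codes, which a list of libraries published with the study ties to the times. What the R1 and R2 columns of a library hold is not given in the sources used here, and they were averaged. For ChIP-seq, the authors used Bowtie for mapping and MACS for peaks, whether against the input library is not given in the sources used here, and the deposited peak list gives the tag count, the fold enrichment (a ratio) and the false discovery rate in percent of 11157 peaks, called on 1 library. All per-sample columns were used.

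Where a symbol had several entries, the one with the highest mean was kept (93 entries for the 85 genes). The log2 ratio was log2((level + 1)/(untreated level + 1)), which understates the change of low genes, minus the median over coding genes with a mean level above 100. GC content and length came from GENCODE transcripts of the mm9 assembly, for 99.0% of those genes, in 20 bins of equal gene number. Promoter windows came from RefSeq. Python 3.11.15, numpy 2.4.6, pandas 2.3.3, scipy 1.17.1 and matplotlib 3.10.9 were used, and the steps were checked on simulated data. With 1 library per time there is no test, no p-value and no replicate error, and differences between libraries of the same treatment cannot be assessed.

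The members and the lists of other genes were chosen with earlier results of these data known. Named genes were the highest and lowest of each complex in untreated level and in ratio at each time, every gene at least 2-fold from the centre, core catalytic subunits, the paralogue sets, genes without a peak and, of each other list, the extremes. Alternatives covered scaling, binning, single columns, pseudocounts, filters, entries per symbol, the 2-fold size and the peak rule. Some genes that this rule names are not reported here.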

Additional observations from a re-analysis of the deposited data

Results flagged for a closer look

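In 6 results the 6 hr library lay on the other side of the centre from both the 1.5 and the 24 hr libraries, in the mean and in each of the 2 deposited columns. With 1 library per time, this difference was not tested, and a sample far from its group could not be looked for. The median centred log2 ratio of the 76 oxidative phosphorylation genes was 0.084 after 1.5 hr, -0.26 after 6 hr and 0.12 after 24 hr. For the genes of complex V it was 0.27, -0.050 and 0.34, for 85 cytosolic ribosomal genes 0.093, -0.41 and 0.079, and for 4 genes of mitochondrial DNA expression -0.33, 0.18 and -0.36. Atp5g1, one source of the c subunit, was at -2.10, 0.42 and -1.86, and its 6 hr value was -0.31 before centring. Atp5d was at -1.09, 0.22 and -0.94. The comparisons share the untreated library. Within GC bins 3 of these results no longer changed sides, as Atp5d was at 0.10, 0.40 and 0.11, the cytosolic ribosomal genes at -0.036, -0.44 and -0.025 and the genes of mitochondrial DNA expression at 0.38, 0.39 and 0.31. Complex V did not change sides when scaled to library sums, at 0.46, 0.044 and 0.50, nor by median of ratios or within bins of untreated level, at 0.022 and 0.19 at 6 hr, where its 1.5 and 24 hr values were also above 0.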

How the results depend on the processing

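All values rest on 1 library per time, so none has a replicate error, and read depth could not be read from the deposited values. No paired analysis was possible because each time has 1 library. No library could be left out either, since each is the only one of its time. The median centred ratio of the 76 genes was close to 0, and its side changed with the processing. At 1.5 hr it was 0.53 without centring, 0.28 scaled to library sums, 0.62 within bins of untreated level, 0.16 with a pseudocount of 100, 0.38 with no filter, and -0.0033 and -0.048 with filters at 10 and 1000. At 6 hr it was -0.99 without centring, -0.17 scaled to sums, -0.19 by median of ratios, -0.11, -0.20 and -0.028 within bins of length, GC content and level, -0.43 with a pseudocount of 100, -0.56 with no filter, and -0.33 and -0.16 with filters at 10 and 1000. At 24 hr it was 0.22 without centring, 0.27 scaled to sums, 0.16 by median of ratios, 0.069, 0.24 and 0.50 within bins of length, GC content and level, and -0.024 and 0.022 with filters at 10 and 1000. The 21 genes higher at 1.5 hr became 10 within GC bins and 10 with a filter at 1000, and the 12 lower became 5 without centring, 4 within level bins and 20 at 1.5-fold. The 5 genes higher at 6 hr became 0 without centring, 9 scaled to sums, 8 by median of ratios, 9, 3 and 8 within bins of length, GC content and level, 1 with a pseudocount of 100, 3 with no filter and 12 at 1.5-fold. The 3 lower at 6 hr became 37 without centring, 1, 6 and 1 within those bins, 10 with a pseudocount of 100, 16 with no filter, 5 with a filter at 10 and 23 at 1.5-fold. The 18 higher at 24 hr became 10 within GC bins, 9 with a filter at 1000 and 29 at 1.5-fold, and the 8 lower became 5 within level bins, 13 with a filter at 10 and 18 at 1.5-fold. Against the 1.5 hr library, a comparison chosen after seeing the data, both were 0. Of 174 values of 58 named genes, 2 changed direction while past 2-fold, Atp5d at 1.5 hr from -1.09 to 0.10 within GC bins and Ndufs1 at 1.5 hr from 1.31 to -0.11 within level bins. The cause of these changes was not tested. The number of genes with an H3K4me3 peak was 77 with the start inside a peak and within 1 or 2 kb of it and became 60 at a fold enrichment of at least 40.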
